A study of Mus musculus with 6 samples.

Results

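Cells of the myeloid lineage in 6694c2vTRP1 pancreatic tumors were examined for 9 genes. Cd36, Lpl, Fabp4, Fabp5, Abca1, Apoe and Trem2 take up, carry, export or sense lipids, and Gpnmb and Spp1 are genes of the lipid-loaded macrophage state. The set was chosen by a measured value, namely the lower Cd36 level in myeloid cells of treated mice, so Cd36 against PBS is described below without a test. The 9 genes are 9 of the 34187 genes in the feature list. They were read in macrophage-like, monocyte-like and dendritic cell-like cells of each mouse.

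Mice carrying subcutaneous tumors of 6694c2vTRP1, a mouse pancreatic adenocarcinoma line, had received PBS, mono-IL10 at 26 µg per mouse or IL10/2-Trikine at 30.6 µg per mouse by intraperitoneal injection. Mono-IL10 is an engineered monomer of human IL-10, and IL10/2-Trikine joins it to a binder that brings the IL-2 receptor beta chain into the IL-10 receptor complex. All mice received 2 injections from day 8, and tumors were taken on day 14. Tumors of this line were grown in male and female C57BL/6 mice, per the study's methods. The methods state an age range for the model of the parental line and do not repeat it for this experiment, and the sex of each mouse is not given in the sources used here. CD45+ cells were taken by beads, those of each of 5 mice per group were marked with a hashtag antibody, and each group was pooled into 1 library for 5' single-cell RNA sequencing. Treatment and library therefore cannot be told apart, and p-values below measure the spread between mice within these 3 libraries.

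Macrophages take up fatty acids and modified lipoproteins through scavenger receptors such as CD36, release fatty acids from lipoproteins with the secreted lipase LPL, and move them inside the cell on fatty acid binding proteins. Excess cholesterol leaves through the transporter ABCA1 to apolipoproteins such as APOE. TREM2 is a surface receptor for lipids and lipoproteins, and its signaling is associated with a lipid-loaded macrophage state in which Gpnmb, a lysosome-linked membrane glycoprotein, and Spp1, the secreted protein osteopontin, are often high. IL-10 is a cytokine to which macrophages respond directly through STAT3.

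The libraries held 30528 to 55504 barcodes with 364814102 to 515236552 gene UMIs, and 408 to 700 barcode sequences were shared between pairs of libraries. Barcodes with at least 1000 detected genes numbered 24060 to 46104 after a limit of 10% on mitochondrial UMIs. Clusters were named from marker genes, with the 9 genes and their pathway left out of the clustering. Macrophage-like cells with a mouse numbered 7759 in PBS, 5840 after mono-IL10 and 4990 after IL10/2-Trikine, in 12 clusters. In these cells the 8 macrophage markers, among them C1qa, Mrc1, Adgre1 and Csf1r, together reached 9467 to 10987 CPM (UMIs of a gene over all gene UMIs of the same cells, times 1000000) in mice given PBS, and 12518 to 13741 CPM or 13024 to 13944 CPM in those given mono-IL10 or IL10/2-Trikine, with none of the 8 at 0. Median UMIs per macrophage-like cell were 4984.5 in PBS, 6170.5 after mono-IL10 and 2771.5 after IL10/2-Trikine. In these sums fewer cells of a kind within a class and less RNA per cell cannot be told apart. Dendritic cell-like cells numbered 657, 403 and 312, and monocyte-like cells 192, 158 and 34. No IL10/2-Trikine mouse had the 20 monocyte-like cells needed for a sum in the main clustering, so there monocyte-like cells are compared between mono-IL10 and PBS only. Under both other clusterings 5 mice of each group had enough, and values of these are given with the monocyte-like results. CD45+ bead isolation had left tumor epithelial-like, fibroblast-like and endothelial-like cells in each library, and their levels of Cd36, Lpl, Fabp4, Fabp5 and Spp1 are given beside the results they touch.

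RefSeq promoter windows of 300 bases, from 250 before to 50 after the annotated start on GRCm38.p6, matched 6 of the 9 genes, with 9 windows in all. The authors' counts were made on GRCm39, so the coordinates belong to the older build. The windows of Cd36, Spp1, Gpnmb and Abca1 are shown because the levels of these genes differed between treatments in different directions in macrophage-like cells. Each is written 5′ to 3′ on the strand of its gene, with matches to 4 motifs in capitals on either strand: the CCAAT box (CCAAT, in 37.4% of 32851 RefSeq mouse windows), the nuclear receptor half-site (AGGTCA, 16.3%), the AP-1 site (TGANTCA, 7.81%) and the E-box (CACGTG, 7.15%).
Cd36, chr5:17835847-17836146, minus strand: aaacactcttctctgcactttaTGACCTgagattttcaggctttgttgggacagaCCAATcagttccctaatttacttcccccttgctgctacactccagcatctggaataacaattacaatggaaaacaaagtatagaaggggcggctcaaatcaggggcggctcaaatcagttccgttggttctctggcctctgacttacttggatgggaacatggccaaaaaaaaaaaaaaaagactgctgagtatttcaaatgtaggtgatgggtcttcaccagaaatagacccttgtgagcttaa
Spp1, chr5:104434861-104435160, plus strand: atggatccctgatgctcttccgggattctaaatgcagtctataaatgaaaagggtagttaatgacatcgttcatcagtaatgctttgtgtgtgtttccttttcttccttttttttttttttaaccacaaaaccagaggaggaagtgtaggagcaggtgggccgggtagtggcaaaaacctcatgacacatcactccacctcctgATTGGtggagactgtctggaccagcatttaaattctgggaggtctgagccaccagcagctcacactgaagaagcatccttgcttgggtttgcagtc
Gpnmb, chr6:49036268-49036567, plus strand: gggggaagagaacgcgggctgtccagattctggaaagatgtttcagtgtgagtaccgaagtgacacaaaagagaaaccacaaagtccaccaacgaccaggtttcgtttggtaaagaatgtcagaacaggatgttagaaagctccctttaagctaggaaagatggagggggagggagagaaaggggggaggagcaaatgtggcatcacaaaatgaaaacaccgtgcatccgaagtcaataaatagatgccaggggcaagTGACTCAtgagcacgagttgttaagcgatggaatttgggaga
Abca1, chr4:53159846-53160145, minus strand: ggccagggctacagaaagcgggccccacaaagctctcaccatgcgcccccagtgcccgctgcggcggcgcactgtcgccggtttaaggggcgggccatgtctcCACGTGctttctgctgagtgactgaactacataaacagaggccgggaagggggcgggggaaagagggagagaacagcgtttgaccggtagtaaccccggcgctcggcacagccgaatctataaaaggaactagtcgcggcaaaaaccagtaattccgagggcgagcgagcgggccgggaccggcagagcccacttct
The Cd36 window held a CCAAT box and, as its reverse complement, a half-site, which begin 195 and 228 bases before the start. The printed one of 2 Spp1 windows held a CCAAT box on the other strand and the second none of the motifs, while the Gpnmb window held an AP-1 site a few bases after the start, and the Abca1 window an E-box. The Trem2 window, not printed, held a CCAAT box, a half-site and an AP-1 site, and the 3 Apoe windows held none of the 4 letter strings. These matches are descriptions of the sequence.

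In macrophage-like cells the lipid genes did not move as 1 block. Fabp5 and Spp1 were higher with both agents than with PBS, Lpl and Gpnmb were lower with mono-IL10, and Fabp4 was higher with IL10/2-Trikine. The calls of Gpnmb and Fabp4, and that of Spp1 with mono-IL10, did not hold in every alternative described below. Cd36, the gene that chose the set, was lowest with mono-IL10 and lay between the other groups with IL10/2-Trikine. Apoe, the gene with 10548 to 15841 CPM in every mouse, passed the test in no comparison of all macrophage-like cells.

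**Figure D1:**
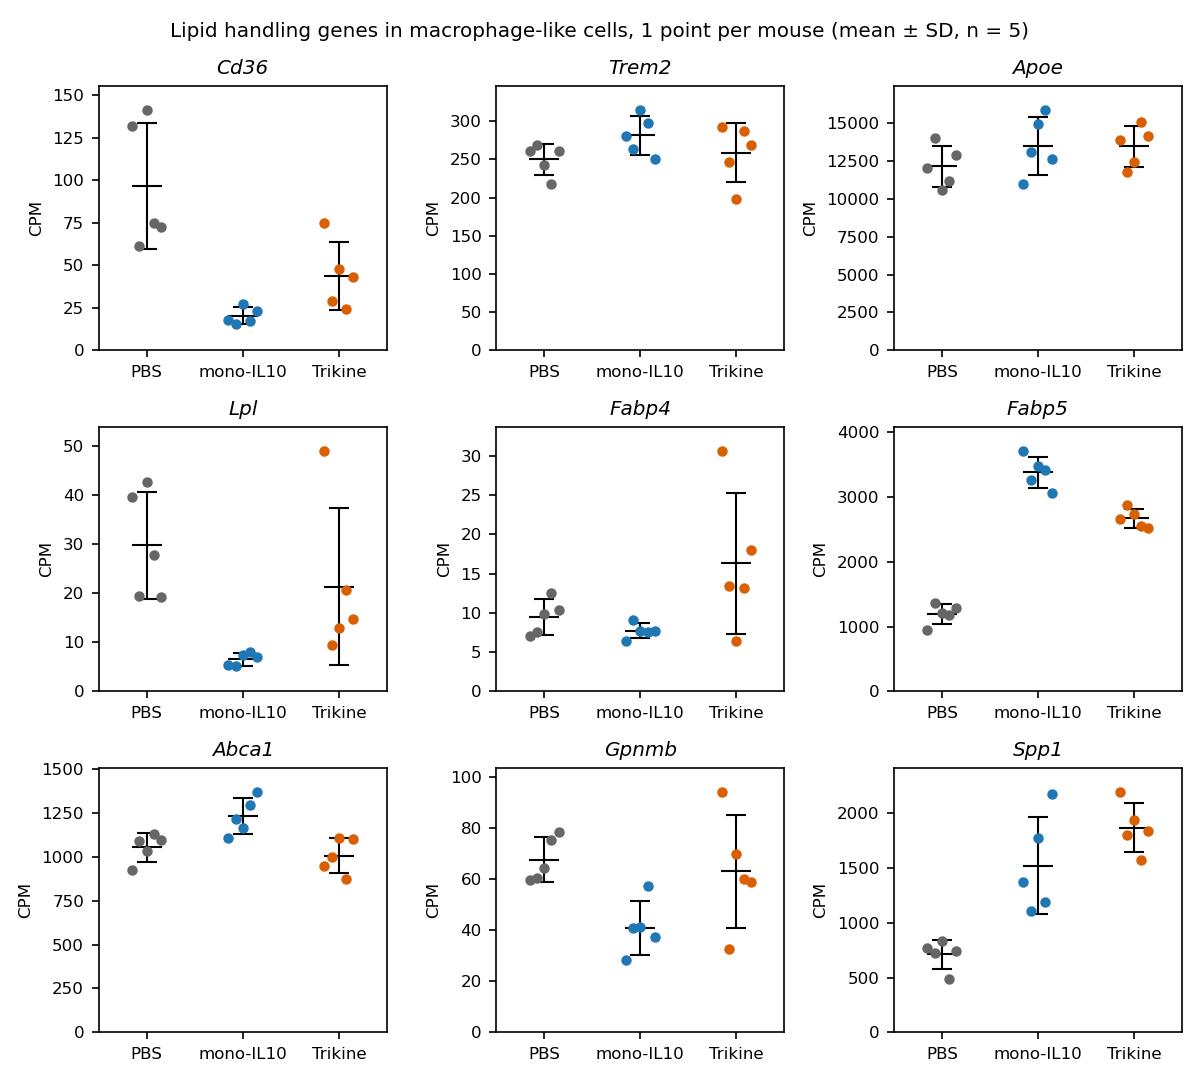
Level of each of the 9 genes in macrophage-like cells (vertical axes, CPM from 0) by treatment group (horizontal axes), with 1 point per mouse and the mean ± SD over 5 mice in black. Fabp5 and Spp1 of every treated mouse lie above every PBS mouse, Cd36 and Lpl of every mono-IL10 mouse lie below every PBS mouse, and IL10/2-Trikine mouse 1 has the highest Lpl of all mice at 49.0 CPM.

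Among the uptake genes, Cd36, the scavenger receptor and fatty acid translocase, was at 132, 61.5, 141, 75.1 and 72.6 CPM in the 5 PBS mice. It was at 17.9, 15.8, 27.6, 17.5 and 23.4 CPM in the mono-IL10 mice and at 75.2, 29.0, 47.7, 24.1 and 43.2 CPM in the IL10/2-Trikine mice. Every mono-IL10 mouse lay below every PBS mouse, while IL10/2-Trikine mouse 1 lay among the PBS mice. The means were 96.5 ± 37.1, 20.4 ± 4.91 and 43.8 ± 20.1 CPM (SD, n = 5 each), 4.72-fold lower with mono-IL10 and 2.20-fold lower with IL10/2-Trikine than with PBS. The share of macrophage-like cells with at least 1 Cd36 UMI, after every cell was thinned to 1500 UMIs, was 7.90% ± 2.41 in PBS, 2.35% ± 0.450 after mono-IL10 and 3.86% ± 1.1 after IL10/2-Trikine (SD over 5 mice). Without thinning the pooled shares were 15.7%, 6.0% and 6.57%. In T cell-like cells, where Cd36 was low, the thinned shares were 1.64%, 0.128% and 1.29%, at median depths of 2627, 3446 and 2691 UMIs, so the T cell-like share also was lowest in the mono-IL10 library. Its part in the macrophage-like difference was not tested. The set was chosen on Cd36 against PBS, but the direct comparison of the treatments uses the same Cd36 values of the treated mice. Its p-value is therefore not independent of that choice. In that comparison Cd36 was 2.12-fold higher with IL10/2-Trikine than with mono-IL10 (log2 fold change 1.08 ± 0.29 SE, edgeR adjusted p = 0.0155). That call was lost without IL10/2-Trikine mouse 1 (log2 fold change 0.66, edgeR adjusted p = 0.178).

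Lpl, the secreted lipase that frees fatty acids from lipoproteins, was at 39.6, 19.5, 42.6, 27.9 and 19.3 CPM in PBS, at 5.31, 5.12, 7.34, 8.06 and 7.04 CPM after mono-IL10 and at 49.0, 9.50, 12.8, 20.6 and 14.8 CPM after IL10/2-Trikine. All mono-IL10 mice lay below all others, and the other groups overlapped. Lpl fell by 2.08 ± 0.33 on the log2 scale with mono-IL10 against PBS (edgeR adjusted p = 0.000129). It was 3.53-fold higher with IL10/2-Trikine than with mono-IL10 (edgeR adjusted p = 0.0029), and the log2 fold change of IL10/2-Trikine against PBS was -0.26 (adjusted p = 0.639). IL10/2-Trikine mouse 1 decided both: without it the log2 fold change against PBS was -1.09 (edgeR adjusted p = 0.013) and that against mono-IL10 was 0.98 (adjusted p = 0.0642). Fibroblast-like cells held 62.6 ± 24.3 CPM of Lpl in PBS (SD, n = 5). The 7 fibroblast markers together reached 17.3 to 28.5 CPM in the macrophage-like cells of PBS mice, 7.65 to 13.0 CPM after mono-IL10 and 25.4 to 41.2 CPM after IL10/2-Trikine, with at most 3 of the 7 at 0, and their part in the Lpl level was not tested.

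Of the fatty acid binding proteins, Fabp5, a cytosolic fatty acid carrier of macrophages and epithelia, was at 953, 1366, 1205, 1180 and 1283 CPM in PBS, at 3711, 3258, 3474, 3411 and 3058 CPM after mono-IL10 and at 2663, 2872, 2732, 2556 and 2526 CPM after IL10/2-Trikine. The 3 groups did not overlap. Fabp5 was 3.03-fold higher with mono-IL10 (log2 fold change 1.60 ± 0.09, edgeR adjusted p = 9.93e-10) and 2.22-fold higher with IL10/2-Trikine (1.15 ± 0.09, adjusted p = 1.38e-07) than with PBS. The IL10/2-Trikine level was lower than that of mono-IL10 by 0.45 ± 0.09 on the log2 scale (edgeR adjusted p = 0.00273). These calls were kept when any 1 mouse was left out. T cell-like cells held 372 ± 181, 548 ± 156 and 842 ± 265 CPM of Fabp5 in the groups in the same order, fibroblast-like cells 93.5 ± 25.4, 225 ± 106 and 239 ± 126 CPM, and tumor epithelial-like cells 25.4 ± 5.74, 32.7 ± 8.55 and 54.5 ± 42.6 CPM (SD, n = 5 each). NK cell-like cells held 79.9, 106 and 238 CPM on average and endothelial-like cells 280, 315 and 362 CPM. Each of these means was below the lowest macrophage-like PBS mouse, 953 CPM. In each of these classes the mean was higher in both treated groups than in PBS. The part of RNA from other cells in the Fabp5 of macrophage-like cells was not tested.

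Fabp4, the adipocyte-type fatty acid binding protein that is also an endothelial gene, was much sparser, with 7.07, 7.50, 9.89, 12.5 and 10.4 CPM in PBS, 6.4, 9.14, 7.68, 7.61 and 7.74 CPM after mono-IL10 and 30.6, 13.4, 6.42, 13.2 and 18.0 CPM after IL10/2-Trikine. The IL10/2-Trikine group overlapped both others through its mouse 3, and its highest value was that of mouse 1. The fitted rise was 2.01-fold against PBS (log2 fold change 1.01 ± 0.24, edgeR adjusted p = 0.00623) and 2.27-fold against mono-IL10 (adjusted p = 0.00331), while mono-IL10 and PBS did not pass the test (log2 fold change -0.18, adjusted p = 0.625). Without IL10/2-Trikine mouse 1 the rise against PBS was 0.55 on the log2 scale and was not called (edgeR adjusted p = 0.103). With the sums of all mice thinned to the same total both Fabp4 calls were lost (log2 fold change 0.66 against PBS, edgeR adjusted p = 0.181, and 0.80 against mono-IL10, adjusted p = 0.143), and the call against PBS was also lost under both other clusterings (log2 fold change 0.86 and 0.90, edgeR adjusted p = 0.0504 and 0.0552). Endothelial-like cells held 2001, 2361 and 2650 CPM of Fabp4 on average in PBS, mono-IL10 and IL10/2-Trikine, with highest mice at 2281, 4073 and 6928 CPM. Tumor epithelial-like cells held 0.773, 0.452 and 8.22 CPM on average, and fibroblast-like cells 11.4, 10.9 and 14.6 CPM. The means were 0.635, 4.17 and 4.8 CPM in T cell-like cells and 1.17, 0 and 0.417 CPM in NK cell-like cells. Per UMI of the endothelial marker list Fabp4 in macrophage-like cells was 0.109, 0.0610 and 0.182 in the 3 groups, against 0.461, 0.487 and 0.628 in endothelial-like cells. The part of RNA from endothelial-like or other cells in the Fabp4 of macrophage-like cells was not tested. For Cd36 the same ratio was 1.17, 0.164 and 0.466 in macrophage-like cells and 0.0859, 0.0758 and 0.153 in endothelial-like cells. In PBS every mouse had a higher ratio in macrophage-like cells (lowest 0.708) than any in endothelial-like cells (highest 0.108), while with mono-IL10 (lowest 0.116, highest 0.135) and IL10/2-Trikine (lowest 0.214, highest 0.395) the mice of these classes overlapped.

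Of the efflux genes, Abca1, the transporter that loads cholesterol onto apolipoproteins, was at 922 to 1131 CPM in PBS, 1108 to 1367 CPM after mono-IL10 and 873 to 1107 CPM after IL10/2-Trikine. It rose 1.25-fold with mono-IL10 against PBS (log2 fold change 0.32 ± 0.08, edgeR adjusted p = 0.00469), with overlap between the groups. That call was lost without cluster c41 of the macrophage-like cells, which is described below (log2 fold change 0.21, edgeR adjusted p = 0.0547). Abca1 was lower with IL10/2-Trikine than with mono-IL10 by 0.40 ± 0.08 on the log2 scale (adjusted p = 0.00256), with no overlap but with the nearest mice at 1107.0 and 1107.6 CPM. Against PBS the IL10/2-Trikine difference was -0.07 (95% interval -0.23 to 0.08, edgeR adjusted p = 0.582). Apoe, an apolipoprotein that accepts the cholesterol, was at 10548 to 14001 CPM in PBS, 10997 to 15841 CPM after mono-IL10 and 11774 to 15057 CPM after IL10/2-Trikine, with overlap of all groups. Its log2 fold changes were 0.26 for mono-IL10 (95% interval 0.04 to 0.47, edgeR adjusted p = 0.0825) and 0.14 for IL10/2-Trikine (95% interval -0.07 to 0.36, adjusted p = 0.403) against PBS. Among cells with at least 2000 detected genes the differences of IL10/2-Trikine from PBS were -0.33 for Apoe, -0.46 for Abca1 and -0.22 for Trem2, of which only that of Abca1 was called (edgeR adjusted p = 0.000526). In the same cells Apoe (-0.64, edgeR adjusted p = 0.000278) and Trem2 (-0.55, edgeR adjusted p = 0.000612) were lower with IL10/2-Trikine than with mono-IL10. The Apoe difference between mono-IL10 and PBS was called in them as well (0.31, edgeR adjusted p = 0.0423), and among all cells without PBS mouse 2 (edgeR adjusted p = 0.0246) or mono-IL10 mouse 1 (adjusted p = 0.045).

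In the TREM2 group, Trem2, the lipid receptor itself, was at 217 to 268 CPM in PBS, 251 to 315 CPM after mono-IL10 and 198 to 292 CPM after IL10/2-Trikine. Its 1.21-fold rise with mono-IL10 passed the test (log2 fold change 0.28 ± 0.10, edgeR adjusted p = 0.0366), but 6 of the 15 fits that left out 1 mouse did not call it, namely those without PBS mouse 1, 3 or 4 or mono-IL10 mouse 1, 3 or 4 (edgeR adjusted p 0.0633 to 0.104, log2 fold change 0.23 to 0.28). The call was also lost with the lipid genes in the clustering (0.24, edgeR adjusted p = 0.0531), without cells that held 2 or more UMIs of tumor epithelial, fibroblast and endothelial markers, called non-immune UMIs here (0.23, edgeR adjusted p = 0.0898), and without cluster c41 (0.18, edgeR adjusted p = 0.177). Gpnmb, which is induced with lysosomal stress in lipid-loaded macrophages, was at 59.5, 60.5, 64.4, 75.3 and 78.3 CPM in PBS and at 28.2, 40.7, 41.1, 57.4 and 37.5 CPM in mono-IL10, with no overlap. It was at 94.0, 32.6, 69.7, 60.2 and 58.8 CPM in IL10/2-Trikine, spread around the PBS values. Gpnmb fell by 0.62 ± 0.19 on the log2 scale with mono-IL10 against PBS (edgeR adjusted p = 0.0192), a call that was lost without mono-IL10 mouse 1 (log2 fold change -0.52, adjusted p = 0.051) and among cells with at least 2000 detected genes (-0.49, adjusted p = 0.0746). IL10/2-Trikine against mono-IL10 differed by 0.55 ± 0.21 and was not called (edgeR adjusted p = 0.0909). It was called without mono-IL10 mouse 4 (edgeR adjusted p = 0.0313) or IL10/2-Trikine mouse 2 (adjusted p = 0.0118). The lipid genes in the clustering (edgeR adjusted p = 0.0123) and no low-count filter (adjusted p = 0.043) also gave a call.

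Spp1, the secreted phosphoprotein osteopontin, was at 771, 727, 832, 489 and 743 CPM in PBS, at 1371, 1102, 1770, 1190 and 2171 CPM after mono-IL10 and at 2191, 1798, 1938, 1570 and 1836 CPM after IL10/2-Trikine. Every treated mouse lay above every PBS mouse, and the treated groups overlapped. Spp1 was 2.29-fold higher with mono-IL10 (log2 fold change 1.20 ± 0.16, edgeR adjusted p = 1.65e-05) and 2.62-fold higher with IL10/2-Trikine (1.39 ± 0.16, adjusted p = 8.57e-06) than with PBS, and the treatments differed from each other by 0.19 (95% interval -0.11 to 0.50, adjusted p = 0.473). With the unnamed Mmp12 cluster described below added to the macrophage-like cells, the mono-IL10 rise was 0.55 on the log2 scale and was not called (edgeR adjusted p = 0.0926).

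**Figure D2:**
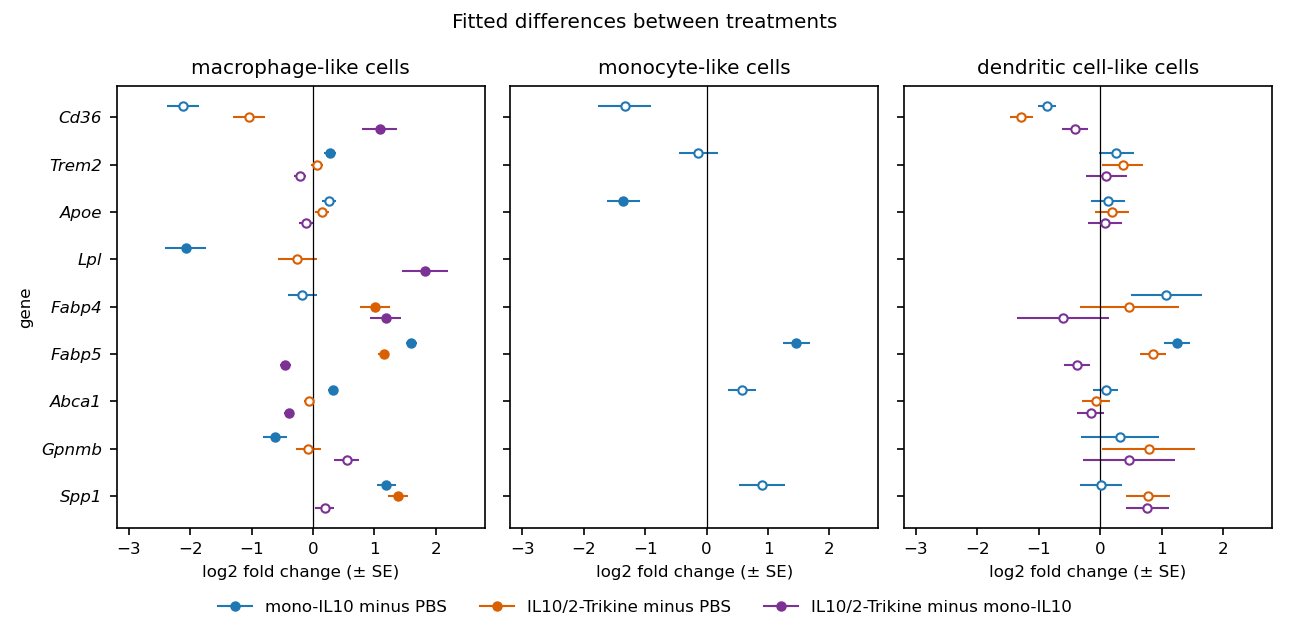
Fitted log2 fold change ± SE (horizontal axis) of the 9 genes (vertical axis) between treatments in macrophage-like, monocyte-like and dendritic cell-like cells. Filled points have an edgeR adjusted p under 0.05. Open points do not, or are Cd36 against PBS, which was not tested, and genes without a point did not pass the low-count filter. In macrophage-like cells Fabp5 (1.60 and 1.15) and Spp1 (1.20 and 1.39) are right of 0 for both treatments against PBS, and Lpl is at -2.08 for mono-IL10.

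Of the 8 genes other than Cd36, all passed the low-count filter in macrophage-like cells. With mono-IL10 against PBS 4 rose (Fabp5, Spp1, Abca1 and Trem2) and 2 fell (Lpl and Gpnmb), where 29.0% of all 12340 genes tested were called. The count was 4, without Abca1 and Trem2, when cluster c41 was left out, where 27.2% of all genes were called. Spp1 and Trem2 were not called when the Mmp12 cluster was added, where 28.2% of all genes were called. With IL10/2-Trikine against PBS 3 rose (Fabp5, Spp1 and Fabp4) and 0 fell, where 16.8% of all genes were called. The same 3 genes were also the only ones at an unadjusted p under 0.05. Between IL10/2-Trikine and mono-IL10, with Cd36 counted, 3 of 9 were higher with IL10/2-Trikine (Cd36, Lpl and Fabp4) and 2 lower (Fabp5 and Abca1), where 14.3% of all genes were called. Of these, Cd36 is not independent of the choice of the set. Without IL10/2-Trikine mouse 1 the last count was 3 in place of 5, and the share of all genes called in that fit is not given here. The median log2 fold change over all genes was within 0.01 of 0 in each comparison, and the comparisons share their control mice.

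The 9 genes were not spread evenly over the myeloid clusters. A cluster of 1416 cells, left unnamed because its macrophage score was 0.146, was led by Mmp12, Cxcl3, Lpl, Cd36, Inhba and Dcstamp, and is called the Mmp12 cluster here. Mmp12 is the macrophage elastase. It held 843 cells of PBS, 146 of mono-IL10 and 427 of IL10/2-Trikine, with 857 CPM of Cd36, 521 CPM of Lpl, 281 CPM of Gpnmb and 7461 CPM of Spp1 over all its cells. Of the Cd36 UMIs of this cluster and the macrophage-like cells together, the cluster held 52.3% in PBS, 48.1% after mono-IL10 and 64.8% after IL10/2-Trikine, from 9.50%, 2.40% and 7.31% of the cells. For Lpl its part was 67.8%, 63.4% and 65.5%. The share of the cluster per mouse was 10.0% ± 7.21 in PBS, 2.45% ± 1.59 after mono-IL10 and 4.60% ± 3.76 after IL10/2-Trikine (SD, n = 5 each), with 313 of the PBS cells from mouse 3 and 255 of the IL10/2-Trikine cells from mouse 1.

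**Figure D3:**
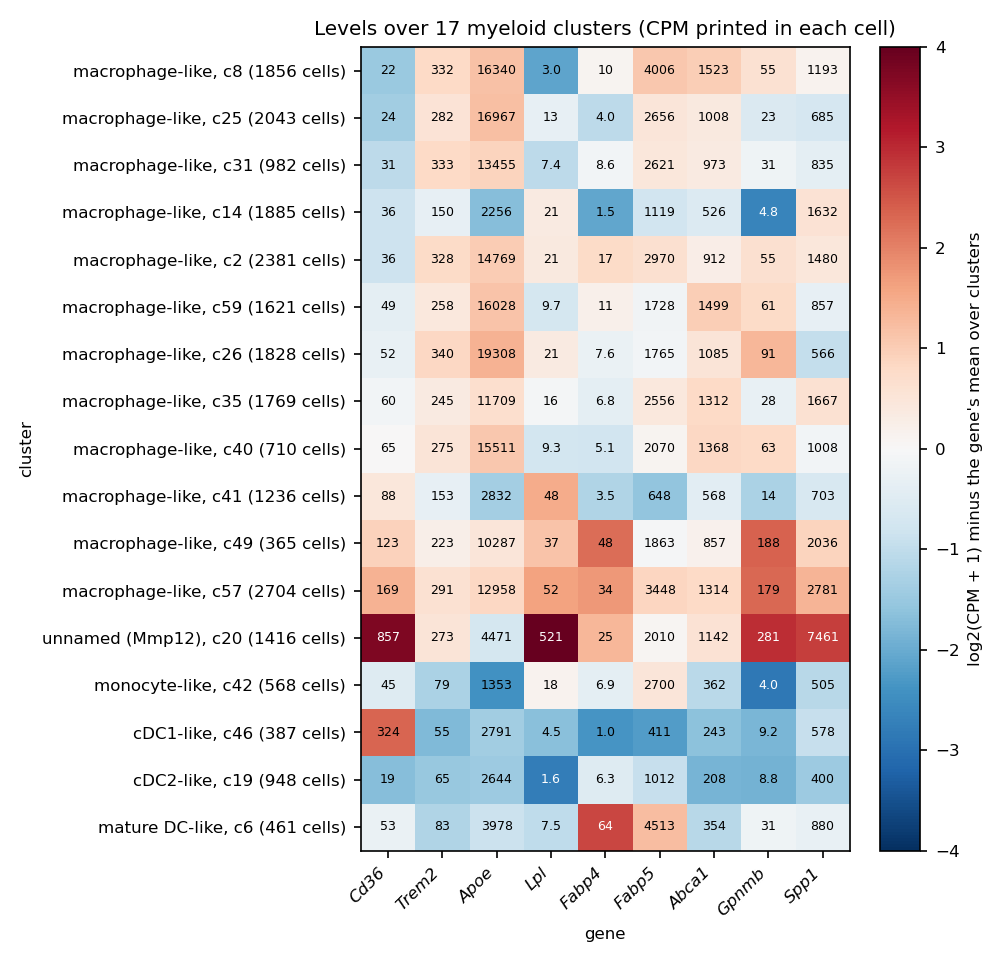
Levels of the 9 genes (horizontal axis) in 17 myeloid clusters (vertical axis, with the number of cells), pooled over the treatments, which differ in their share of each cluster. Each cell prints the CPM over all cells of the cluster, and the color gives log2(CPM + 1) minus the mean of the gene over clusters. The Mmp12 cluster has the highest Cd36 (857 CPM), Lpl (521 CPM), Gpnmb (281 CPM) and Spp1 (7461 CPM), and the cDC1-like cluster c46 follows for Cd36 with 324 CPM.

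The order of the 12 macrophage-like clusters depended on the treatment, so their levels are given within one. In PBS Cd36 ran from 41.8 CPM in c25 to 317 CPM in c57, a cluster led by Gpnmb, Pf4 and Arg1. After mono-IL10 it ran from 4.9 CPM in c2 to 119 CPM in c49, led by the interferon-induced genes Rsad2, Ifit2 and Cmpk2, and after IL10/2-Trikine from 12.6 CPM in c25 to 144 CPM in c57. Cluster c8, led by Nrg1, Cd163 and Tmem26, had 164.5 CPM of Cd36 in PBS, the second highest level, and 10.2 and 16.1 CPM after mono-IL10 and IL10/2-Trikine. In PBS the highest Gpnmb (244 CPM) and Fabp4 (39.9 CPM) were in c57, the highest Lpl (60.6 CPM) in c41 and the highest Spp1 in c14 (1256 CPM), c57 (1241 CPM) and c49 (1221 CPM). Clusters c14 and c41, both with class II histocompatibility genes among their leading genes, had 2256 and 2832 CPM of Apoe over all treatments, 150 and 153 CPM of Trem2 and 525.8 and 568.3 CPM of Abca1. The other 10 had 10287 to 19308 CPM of Apoe, among them c25, which was also led by class II genes and Cxcl9. Cluster c41 shares Ccl17 and Mgl2 with the leading genes of the cDC2-like cluster. Neither c14 nor c41 has a macrophage marker among its 10 leading genes, but of all 12 only c8, c25 and c26 have one. Their scores for the macrophage markers, 0.2756 and 0.2855, were the lowest of the 12 and close to the limit of 0.25. Cluster c14 made up 11.5%, 5.32% and 8.49% of the macrophage-like and Mmp12 cluster cells per mouse on average in PBS, mono-IL10 and IL10/2-Trikine, and c41 10.3%, 3.14% and 2.06%. With both left out, Trem2 (log2 fold change 0.16, edgeR adjusted p = 0.205) and Abca1 (0.16, edgeR adjusted p = 0.167) were not called for mono-IL10 against PBS. The other calls of the 9 genes in macrophage-like cells were the same with c41 or both left out, and Cd36 with both left out was 98.8 ± 41.1 CPM in PBS, 20.5 ± 5.26 CPM after mono-IL10 and 46.6 ± 22.1 CPM after IL10/2-Trikine (SD, n = 5 each).

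Across the 17 clusters Trem2 and Abca1 correlated at 0.95, Trem2 and Apoe at 0.85 and Lpl and Spp1 at 0.76, Cd36 and Lpl at 0.69, and Cd36 and Trem2 at -0.06 (Pearson's r of log2(CPM + 1) over clusters, a description, since the clusters share libraries and mice and mix the treatments in unequal shares). Within the cells of 1 treatment at a time, the correlation of Trem2 and Abca1 was 0.91 to 0.96, that of Trem2 and Apoe 0.81 to 0.85, that of Lpl and Spp1 0.71 to 0.87, that of Cd36 and Lpl 0.51 to 0.68 and that of Cd36 and Trem2 -0.33 to 0.13. The Mmp12 cluster enters all of these values, with 857 CPM of Cd36 and 521 CPM of Lpl against at most 324 and 52.2 CPM elsewhere. Correlations without it are not given here. By the measure over all treatments and 7944 genes, those most like Cd36 were Tshz1 (0.83), Txn1, Tusc3, Igf2r and Pcdh7 (0.78). Those most like Spp1 were Il3ra (0.91), Ctsk, Ugdh, Ptgfrn and Cav1 (0.89), and those most like Trem2 were Renbp (0.99), Tceal8, Slc37a2, Naglu and AU022793 (0.96).

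The mix of clusters differed between the libraries, and several clusters were mostly of 1 library. Cluster c8 made up 22.6% ± 0.484 of the macrophage-like and Mmp12 cluster cells per mono-IL10 mouse, 1.83% ± 0.587 per PBS mouse and 6.81% ± 3.0 per IL10/2-Trikine mouse. Cluster c57 made up 23.1% ± 3.96 per IL10/2-Trikine mouse, 8.64% ± 0.876 per PBS mouse and 11.1% ± 4.54 per mono-IL10 mouse. Within clusters, over the pooled cells, Cd36 was lower than in PBS in 12 of 12 macrophage-like clusters with each agent, at a median ratio of 0.190 for mono-IL10 (0.0620 to 0.923) and 0.451 for IL10/2-Trikine (0.0976 to 0.889). This describes the value that chose the set, and the clusters share mice and libraries. Mouse 1 held 2087 of the 4990 macrophage-like cells with a mouse in IL10/2-Trikine. Fabp5 was higher than in PBS in 12 of 12 clusters with each agent (median ratio 2.36 and 1.86), and so was Spp1 (1.93 and 2.53). Lpl was lower with mono-IL10 in 12 of 12 clusters (median ratio 0.299) and with IL10/2-Trikine in 6 of 12. With every mouse given the same weights of clusters, Cd36 was 121 ± 44.4 CPM in PBS, 20.8 ± 6.64 CPM after mono-IL10 and 37.9 ± 19.2 CPM after IL10/2-Trikine (SD, n = 5 each), and no mouse of either treated group was above 69.3 CPM or any PBS mouse below 72.4 CPM.

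**Figure D4:**
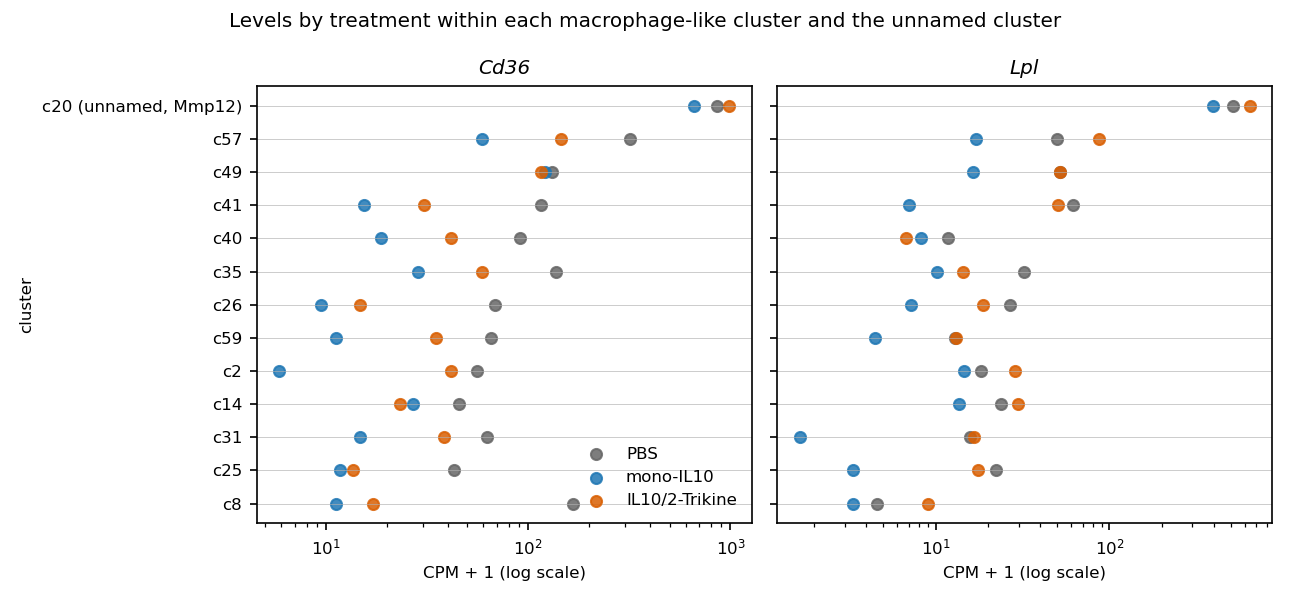
Cd36 and Lpl (CPM + 1 over the pooled cells, log axes) by treatment in each of the 12 macrophage-like clusters and the Mmp12 cluster c20 (vertical axis). PBS points are right of both treated points for Cd36 in all 12 macrophage-like clusters, while in the Mmp12 cluster Cd36 is 857 CPM in PBS, 660 CPM after mono-IL10 and 986 CPM after IL10/2-Trikine.

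In the Mmp12 cluster itself 5 PBS, 3 mono-IL10 and 3 IL10/2-Trikine mice had at least 20 cells. Cd36 was at 972, 741, 881, 832 and 763 CPM in PBS, at 443, 684 and 567 CPM in mono-IL10 mice 1, 3 and 5, and at 1136, 388 and 646 CPM in IL10/2-Trikine mice 1, 4 and 5. These 3 mono-IL10 mice lay below all PBS mice and these 3 IL10/2-Trikine mice on both sides of them. Of the mice left out for having fewer cells, mono-IL10 mouse 4 had 1479 CPM from 17 cells, above all PBS mice, mono-IL10 mouse 2 had 93.0 CPM from 9 cells, and IL10/2-Trikine mice 2 and 3 had 598 and 1390 CPM from 17 and 13 cells. Spp1 was the only one of the 8 other genes called there, with 4524 to 7158 CPM in PBS, 7571 to 9888 CPM after mono-IL10 and 10141 to 11994 CPM after IL10/2-Trikine in the mice with at least 20 cells, whose groups did not overlap. The mice with fewer cells had 11011 and 10970 CPM (mono-IL10 mice 2 and 4) and 12774 and 15989 CPM (IL10/2-Trikine mice 2 and 3), so that with them the treated groups overlapped and lay above PBS. It rose 1.65-fold with mono-IL10 (log2 fold change 0.72 ± 0.14, edgeR adjusted p = 0.00869) and 2.08-fold with IL10/2-Trikine (1.06 ± 0.14, adjusted p = 0.000213) against PBS, where 0.930% and 0.358% of the 5589 genes tested were called. The mono-IL10 call was lost without mono-IL10 mouse 3, and without PBS mouse 2 a second gene was called with IL10/2-Trikine. Between the treatments 0 of the 9 genes were called by edgeR, with 4 at an unadjusted p under 0.05, where 0.0895% of all genes were called. DESeq2 called 0 of the 8 it tested, and 1.95% of its 1232 genes.

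Adding the Mmp12 cluster to the macrophage-like cells ended 3 calls described above and made 1. One of them was the Spp1 rise with mono-IL10, given above. The cluster held 48.4% of the Spp1 UMIs of these cells in PBS, 14.9% after mono-IL10 and 38.5% after IL10/2-Trikine. Trem2 with mono-IL10 was then at an edgeR adjusted p of 0.054. Cd36 of IL10/2-Trikine against mono-IL10 was then 1.26 on the log2 scale and not called (edgeR adjusted p = 0.0727), while Gpnmb in that comparison was 0.86 and called (edgeR adjusted p = 0.0161). Cd36 was 183 ± 94.4 CPM in PBS, 40.2 ± 17.7 CPM after mono-IL10 and 97.2 ± 78.4 CPM after IL10/2-Trikine (SD, n = 5 each) with the cluster added.

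Spp1 is also a gene of tumor cells, and its level in other cells was read beside that of macrophage-like cells. Tumor epithelial-like cells held 8316, 8416 and 7089 CPM on average in PBS, mono-IL10 and IL10/2-Trikine, and fibroblast-like cells 2645, 3430 and 2867 CPM. T cell-like cells held 169 ± 98.6, 196 ± 58.8 and 788 ± 455 CPM (SD, n = 5 each). NK cell-like cells held 902, 640 and 1122 CPM on average, with PBS mice from 114 to 3692 CPM. The 7 tumor epithelial markers together reached 87.8 to 195 CPM in macrophage-like cells of PBS mice, 71.9 to 135 CPM in mono-IL10 and 150 to 214 CPM in IL10/2-Trikine, with at most 1 of the 7 at 0. Macrophage-like cells held 5.41, 17.7 and 10.4 Spp1 UMIs per UMI of that list in the 3 groups, with 3.72 as the lowest mouse. Tumor epithelial-like cells held 1.54, 1.57 and 1.66, with 1.82 as the highest mouse. Dendritic cell-like cells held 1.52, 2.21 and 2.46, and their mice ran from 0.178 to 5.78, on both sides of the tumor epithelial ratio. The ratio to fibroblast markers is not given here. The part of RNA from other cells in the Spp1 of macrophage-like cells was not tested.

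**Figure D5:**
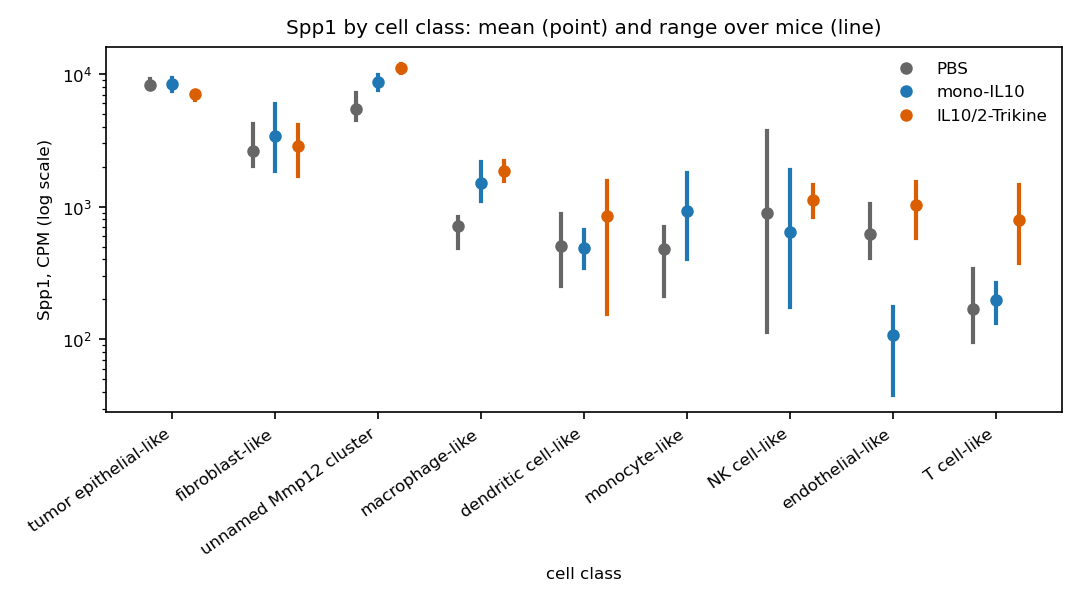
Spp1 level (vertical axis, CPM, log scale) by cell class (horizontal axis) and treatment, with the mean over mice as a point and the lowest to highest mouse as a line. Tumor epithelial-like cells (7089 to 8416 CPM on average) and the Mmp12 cluster (5412 to 11068 CPM) have higher means than the other classes, and macrophage-like cells rise from 712 CPM in PBS to 1521 and 1867 CPM.

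In monocyte-like cells, recruited Ly6c2-positive precursors of tumor macrophages, 5 of the 8 genes passed the low-count filter (Lpl, Fabp4 and Gpnmb did not), and only mice with at least 20 cells entered. Fabp5 rose and Apoe fell with mono-IL10 against PBS, where 3.67% of 3076 genes were called. Fabp5 was at 808, 1749, 1505, 1291 and 2164 CPM in PBS and at 4078, 4720 and 3442 CPM in mono-IL10 mice 1, 2 and 5, with no overlap (log2 fold change 1.46 ± 0.22, edgeR adjusted p = 0.00045). Apoe was at 1484 to 3545 CPM in PBS and 612 to 1142 CPM in mono-IL10, also with no overlap (fell by 1.36 ± 0.27 on the log2 scale, edgeR adjusted p = 0.0047). The Apoe call was lost without mono-IL10 mouse 1 (edgeR adjusted p = 0.0633) and under the coarser clustering, where its log2 fold change was -0.35 (adjusted p = 0.328). It was also lost with the lipid genes in the clustering (-0.47, edgeR adjusted p = 0.203) and without cells that held 2 or more non-immune UMIs (-1.22, edgeR adjusted p = 0.0725). Cd36 was at 103, 51.4, 66.3, 40.5 and 77.3 CPM in PBS and at 24.9, 12.6 and 41.6 CPM in mono-IL10, with slight overlap and 7 to 18 UMIs behind each PBS value. The means were 67.7 ± 24.2 CPM in 5 PBS mice and 26.4 ± 14.5 CPM in 3 mono-IL10 mice (SD). They were 32.4 ± 9.14 and 21.0 ± 3.85 CPM with the lipid genes in the clustering, and 39.7 ± 12.4 and 25.4 ± 8.83 CPM with the coarser clustering (SD, n = 5 each), so that the log2 ratio of means went from -1.361 to -0.6241 and -0.6465. Cd36 of 5 IL10/2-Trikine mice was 7.03 ± 6.87 CPM (0 to 15.3) and 20.2 ± 18.3 CPM (0 to 45.9) under these clusterings. PBS mice ran from 17.7 to 40.7 CPM and from 30.3 to 56.4 CPM. IL10/2-Trikine against PBS called 1 of 5 and 1 of 6 tested genes (3.38% and 4.88% of all genes). Against mono-IL10 it called 1 of 6 and 3 of 7 (2.02% and 4.78%).

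In dendritic cell-like cells Cd36 was at 118, 119, 119, 129 and 119 CPM in PBS, at 76.3, 59.5, 55.0, 73.7 and 44.5 CPM after mono-IL10 and at 58.4, 53.1, 86.7, 34.7 and 26.0 CPM after IL10/2-Trikine. Every treated mouse lay below every PBS mouse, at means of 121 ± 4.41, 61.8 ± 13.2 and 51.8 ± 23.6 CPM (SD, n = 5 each). Most of this Cd36 was in type 1 conventional dendritic cell-like cells (cDC1-like, marked by Xcr1 and Clec9a), which held 334 ± 92.8 CPM per PBS mouse against 24.8 ± 16.4 CPM in type 2 (cDC2-like) and 78.3 ± 75.5 CPM in mature dendritic cell-like cells (SD, n = 5 each). The cDC1-like cells were 147 of 657 in PBS, 59 of 403 after mono-IL10 and 37 of 312 after IL10/2-Trikine. With the same mix of dendritic clusters in every mouse the Cd36 means were 91.4 ± 18.2, 63.2 ± 27.0 and 64.1 ± 26.8 CPM (SD, n = 5 each), and the groups overlapped. Pooled cDC1-like cells held 355, 273 and 263 CPM.

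Of the 8 other genes 7 were tested in dendritic cell-like cells, all but Lpl. With mono-IL10 against PBS 1 was called, Fabp5, where 2.72% of 7384 genes were called. Fabp5 was at 869 to 1393 CPM in PBS, 1464 to 3818 CPM after mono-IL10 and 1593 to 2332 CPM after IL10/2-Trikine, so that both treated groups lay above PBS. The log2 fold change was 1.25 ± 0.21 for mono-IL10 (edgeR adjusted p = 0.00225) and 0.87 ± 0.21 for IL10/2-Trikine (adjusted p = 0.0516, and Fabp5 was called by DESeq2 at an adjusted p of 0.0182). With IL10/2-Trikine against PBS 0 of 7 were called by edgeR, with 2 at an unadjusted p under 0.05, where 0.934% of all genes were called. DESeq2 called 1 of the 5 it tested, and 2.37% of its 5111 genes. Between the treatments 0 of 8 were called by edgeR, with 1 at an unadjusted p under 0.05, where 1.44% of all genes were called. DESeq2 called 0 of the 6 it tested, and 9.33% of its 2477 genes. Cd36 differed there by -0.41 on the log2 scale (95% interval -0.82 to 0.00, edgeR adjusted p = 0.377). Spp1, with 154 to 1558 CPM in IL10/2-Trikine, did not pass the test against PBS (log2 fold change 0.78, edgeR adjusted p = 0.353), and was called without the low-count filter (0.67, edgeR adjusted p = 2.03e-06). Mature dendritic cell-like cells had the highest Fabp5 of the dendritic subsets in PBS, 2978 ± 752 CPM, against 299 ± 116 CPM in cDC1-like cells (SD, n = 5 each). They were 178 of 657 cells in PBS, 106 of 403 after mono-IL10 and 123 of 312 after IL10/2-Trikine. Their Fabp5 was 7730 ± 1432 CPM in 2 mono-IL10 mice and 3618 ± 449 CPM in 3 IL10/2-Trikine mice (SD). In cDC2-like cells Fabp5 was 472 to 862 CPM in 5 PBS mice and 1213 to 2157 CPM in 5 mono-IL10 mice. It was 946 to 1295 CPM in 3 IL10/2-Trikine mice, so that both treated groups lay above PBS in this subset. The part of the mix of subsets in the Fabp5 differences was not tested.

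Across 11 of the classes in PBS, without the neutrophil-like and the mast cell or basophil-like clusters, the order of Cd36 was the Mmp12 cluster (838 ± 93.7 CPM), endothelial-like cells (377 ± 92.3), cDC1-like cells (334 ± 92.8), macrophage-like cells (96.5 ± 37.1), mature dendritic cell-like cells (78.3 ± 75.5), monocyte-like cells (67.7 ± 24.2), cDC2-like cells (24.8 ± 16.4), T cell-like cells (12.5 ± 8.96), tumor epithelial-like cells (1.77 ± 0.404), fibroblast-like cells (1.44 ± 1.66) and NK cell-like cells (1.17 ± 2.61; mean ± SD, n = 5 mice each). The ranges over mice of neighbors in this order overlapped, except between the Mmp12 cluster and endothelial-like cells and between cDC1-like and macrophage-like cells.

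The response of each gene was compared between classes by the difference of their log2(CPM + 1) levels within a mouse. Of 33 such comparisons 3 had a p under 0.05 in an exact two-sided permutation test and 0 passed after adjustment. A single comparison at the smallest p that 252 splits allow reaches only 0.262 after adjustment, so this count says nothing about whether the responses of the classes differ. The smallest p was that of Cd36, which was relatively higher in macrophage-like than in dendritic cell-like cells with IL10/2-Trikine than with mono-IL10 by 1.33 on the log2 scale (exact permutation p = 0.00794, the smallest that 252 splits allow, adjusted p = 0.262). The Cd36 values of the treated mice also entered the choice of the set. For Apoe the difference between macrophage-like and monocyte-like cells with mono-IL10 against PBS was 1.33 (exact permutation p = 0.0179, the smallest that 56 splits allow, adjusted p = 0.295).

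Beyond the 9 genes, 118 genes in 9 lists of lipid pathways were read in the same fits, and 102 were tested in macrophage-like cells. With mono-IL10 against PBS 21 rose and 24 fell, which is 44.1% called against 29.0% of all genes, with a median log2 fold change of -0.01 for the lists and 0.00 for all genes. Of the cholesterol synthesis list, Idi1, Lss, Cyp51, Dhcr7 and Insig1 fell. The 4 called genes of fatty acid synthesis fell as well (Fasn, Elovl6, Fads2 and Me1, of 9 tested). Of 13 genes of lipid droplets 6 rose (Plin2, Hilpda, Abhd5, Dgat1, Acsl3 and Acsl4) and 1 fell (G0s2, an inhibitor of lipolysis). Of 10 uptake and scavenging genes 4 rose and 2 fell, of 14 efflux genes 3 rose and 2 fell, of 7 genes of the PPAR group 2 rose and 2 fell, and of 15 genes of fatty acid oxidation 1 rose and 2 fell. Of 19 genes of the TREM2 and lysosomal list 5 rose and 4 fell. Ctsl, a lysosomal cysteine protease, was 3.01-fold higher (648 ± 50.9 CPM in PBS and 1816 ± 140 CPM in mono-IL10, SD, n = 5 each, edgeR adjusted p = 1.73e-09), and Axl, a receptor for dying cells, was 2.46-fold lower (241 ± 21.6 against 90.7 ± 12.2 CPM, adjusted p = 1.90e-08). Pparg, the fatty acid sensor that is known to induce Cd36, was 2.31-fold lower at a low level (16.6 ± 5.49 against 7.04 ± 2.00 CPM, edgeR adjusted p = 0.000644). Lipa, the lysosomal acid lipase, fell by 0.82 on the log2 scale, G0s2 by 0.96, Cd9 by 0.71 and Fasn, the fatty acid synthase, by 0.65, while Lgmn rose by 0.81 (edgeR adjusted p 2.55e-07 to 0.000369 for these 5).

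With IL10/2-Trikine against PBS 10 of the 102 genes rose and 13 fell, 22.5% called against 16.8% of all genes (median log2 fold change -0.05 and 0.01). The TREM2 and lysosomal list held 10 of these 23, with Ctsb, Ctsl, Cd63 and Lgmn higher and Syk, Lgals3, Cd9, Clec7a, Axl and Lilrb4a lower. Ctsl was 2.33-fold higher (edgeR adjusted p = 1.38e-07), Lgmn 1.52-fold higher and Slc27a1, a fatty acid transporter, 1.41-fold higher. Axl fell by 0.97 on the log2 scale (edgeR adjusted p = 2.53e-06). Abcg3 was 1.54-fold, Cd9 1.45-fold, Clec7a 1.40-fold and Lipa 1.39-fold lower. The calls of Slc27a1 and Lipa were lost among cells with at least 2000 genes (edgeR adjusted p = 0.0583 and 0.109) and with thinned sums (edgeR adjusted p = 0.0575 and 0.119), and that of Clec7a without cluster c41 (edgeR adjusted p = 0.111). Of cholesterol synthesis 3 genes fell (Idi1, Cyp51 and Insig1) and 0 rose, and each other list held at most 4 calls. Between the treatments 5 genes were higher with IL10/2-Trikine and 12 lower, 16.7% called against 14.3% of all genes (median log2 fold change -0.03 and 0.00). Genes of lipid droplets among them were Hilpda (1.52-fold lower, 895 ± 57.6 CPM in mono-IL10 and 636 ± 77.5 CPM in IL10/2-Trikine, SD, n = 5 each, edgeR adjusted p = 0.000134), Dgat1 (1.45-fold lower), Plin2, the droplet coat protein (1.26-fold lower, adjusted p = 0.0434), and G0s2 (1.73-fold higher). The Plin2 call was lost in 10 of the 15 fits that left out 1 mouse, and that of G0s2 with the coarser clustering (edgeR adjusted p = 0.0863) and among cells with at least 2000 genes (edgeR adjusted p = 0.291). Syk, Ppard and Ctsl were 1.35-fold, 1.33-fold and 1.29-fold lower, and Acaa2, of fatty acid oxidation, was 1.41-fold higher.

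In dendritic cell-like cells 4 of 83 tested list genes rose with mono-IL10 against PBS (Scd1, Hilpda, Tyrobp and Ctsl) and 3 fell (Lipa, Abcg3 and Axl), 8.43% called against 2.72% of all genes. Of these calls that of Lipa was lost in 10, that of Abcg3 in 6 and that of Tyrobp in 1 of the 15 fits that left out 1 mouse. With IL10/2-Trikine Scd1 rose and Clec7a and Axl fell (3.61% against 0.934%). The calls of Scd1 and Axl were each lost in 12 of the 15 fits that left out 1 mouse, that of Clec7a in 3 of them and with thinned sums (edgeR adjusted p = 0.053), and all 3 without cells that held 2 or more non-immune UMIs (edgeR adjusted p = 0.213, 0.0674 and 0.366 for Scd1, Axl and Clec7a). Between the treatments Hilpda and Clec7a were lower with IL10/2-Trikine (2.41% against 1.44%), which were lost without those cells as well (edgeR adjusted p = 0.606 and 0.0551). In monocyte-like cells Ctsl and Lgmn rose and Axl fell, of 42 tested (7.14% against 3.67%). The Axl call was lost under none of the alternatives that tested it for mono-IL10 against PBS in these 3 classes, and for IL10/2-Trikine against PBS in macrophage-like cells.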

How the data were processed

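Gene UMIs and hashtag UMIs of CD45+ tumor cells were measured by 10x Genomics 5' sequencing in 3 pairs of libraries, 1 pair per treatment. The count matrices were deposited as raw UMI counts per gene and barcode, which the authors had made with Cell Ranger on GRCm39, introns included. The authors' deposited cell annotation covers T and NK cells and was not used to name myeloid cells, and 7858 cells of another treatment group in it were not used. Per the labels, Seurat 5.1.0 and DESeq2 1.46.0 were among the submitters' tools.

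Barcodes entered with 1000 or more detected genes and a mitochondrial share of up to 10%. Mice were called from hashtags (HTODemux, Seurat 5.3.0, quantile 0.99), and barcodes with several hashtags were left out as doublets, so doublets within a mouse stay. These calls matched 97.1%, 98.6% and 97.9% of annotated cells for PBS, mono-IL10 and IL10/2-Trikine. Barcodes without a hashtag call stayed in the clusters and in values over pooled cells, but entered no sum per mouse. Cells were grouped on 2000 variable genes, 40 principal components and 60 k-means clusters (scikit-learn 1.9.0), without the 9 genes and the lipid lists. A cluster's score for a class was the median, over the markers, of its mean level divided by that of whichever cluster was highest. The class of highest score gave a cluster its "-like" name, given a score of 0.25 or more and 3 or more markers detected. It stayed unnamed where a class of another lineage scored over 0.25 times as much or had more markers among the top 10 genes, or where the cells were shallow and none of the top 10 was a marker. A rule that leaves a cluster with 3 or more lymphoid genes among its top 10 genes unnamed was added after the clusters had been seen. It took out 1 cluster with macrophage markers, and 19 of 60 clusters were unnamed in all.

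Counts were summed per mouse and class (at least 20 cells) and fitted with edgeR 4.0.16 (R 4.3.3): TMM, filterByExpr, the quasi-likelihood test, and Benjamini-Hochberg adjustment over all genes tested, with a threshold of 0.05. Each class had 1 fit over the 3 groups. Class differences were tested by exact two-sided permutation of mice. On simulated data for IL10/2-Trikine against PBS in macrophage-like cells, over 12404 genes, 23.9% of 1.5-fold, 79.1% of 2-fold and 100% of 4-fold changes were recovered. The simulation gave every gene the same dispersion, which was set by hand and not estimated from these data. The recovered shares therefore do not measure the power for single genes here. Alternatives were other size factors, DESeq2 1.42.0, no filter, other clusterings, 2000 genes per cell, 50 cells, thinned sums, cells with fewer than 2 non-immune UMIs, the same mix of clusters, and each mouse left out. Non-immune UMIs were those of the tumor epithelial, fibroblast and endothelial marker lists. Adding unnamed clusters to the macrophage-like cells, leaving out clusters c14 and c41, the fit of the Mmp12 cluster, and correlations within 1 treatment were chosen after seeing the data.

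The 9 genes and the lists were chosen with earlier results of these data known. Genes named beyond the 9 were, per comparison in macrophage-like cells, up to 8 called list genes of largest change with a mean of at least 10 CPM, with called genes of other lists named by symbol only, and the 5 genes most correlated with Cd36, Spp1 or Trem2 over clusters. Some genes of the lists are not reported here.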

Additional observations from a re-analysis of the deposited data

Results flagged for a closer look

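Of 72 groups of mice tested for 1 value that stands apart (Dixon's 95% limit), 6 had one, and chance flags about 1 in 20. In macrophage-like cells, Lpl of IL10/2-Trikine mouse 1 was 49.0 CPM, where the other mice had 9.50 to 20.6 CPM. In dendritic cell-like cells, Cd36 of PBS mouse 4 was 128.8 CPM (others 118.3 to 119.5), Gpnmb of PBS mouse 3 was 35.59 CPM (others 5.83 to 14.0), Apoe of mono-IL10 mouse 3 was 6032 CPM (others 2349 to 3310), Lpl of the same mouse was 6.705 CPM (others 0 to 1.64) and Fabp4 of IL10/2-Trikine mouse 3 was 86.72 CPM (others 2.795 to 19.5).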

How the results depend on the processing

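No paired analysis was possible because each mouse belongs to 1 treatment and the hashtag numbers mark no shared animal. Counts of the 9 genes in this section leave out Cd36 against PBS and genes that were not tested. Leaving out 1 mouse at a time, the number of the 9 genes called in macrophage-like cells was 5 to 7 (6 with all mice) for mono-IL10 against PBS, 3 to 3 (3) for IL10/2-Trikine against PBS and 3 to 6 (5) between the treatments, with 36 to 46 (45), 19 to 25 (23) and 14 to 19 (17) of the lipid lists. The 3 genes called for IL10/2-Trikine against PBS were not always the same. Without IL10/2-Trikine mouse 1 the rise of Fabp4 was no longer called and a fall of Lpl was. With all mice 29.0%, 16.8% and 14.3% of all genes were called. The shares of all genes in the fits that left out 1 mouse are not given here. The number was 1 to 3 (2) in monocyte-like cells, with 3 to 4 (3) of the lists, where 3.67% of all genes were called with all mice. In dendritic cell-like cells it was 1 to 1, 0 to 1 and 0 to 0 (1, 0 and 0), with 5 to 8, 0 to 4 and 2 to 2 (7, 3 and 2) of the lists, and in the Mmp12 cluster 0 to 1, 1 to 2 and 0 to 0 (1, 1 and 0). With all mice 2.72%, 0.934% and 1.44% of all genes were called in dendritic cell-like cells, and 0.930%, 0.358% and 0.0895% in the Mmp12 cluster. Gpnmb of IL10/2-Trikine against PBS in macrophage-like cells ran from -0.3659 to 0.1112 (log2), positive without IL10/2-Trikine mouse 2. With at least 2000 genes per cell, IL10/2-Trikine against PBS in macrophage-like cells turned to -0.2176 for Trem2, -0.3273 for Apoe and 0.1116 for Lpl, Cd36 between the treatments in dendritic cell-like cells to 0.03768, and the list counts were 33 in macrophage-like cells between the treatments (33.0% of list genes tested, with 24.02% of all genes called in that fit) and 11 and 5 in dendritic cell-like cells for mono-IL10 and IL10/2-Trikine against PBS (12.2% with 3.27%, and 5.56% with 0.917%). Monocyte-like cells then had too few cells for a value. Without cluster c41, and without c14 and c41, IL10/2-Trikine against PBS turned to -0.02792 and -0.02617 for Trem2, -0.02264 and -0.05793 for Apoe and 0.07372 and 0.0534 for Lpl. In the same form, thinned sums gave 29, 15 and 11 list genes in macrophage-like cells (31.9% with 15.2%, 16.5% with 12.3% and 12.1% with 6.63%), 2 and 0 in dendritic cell-like cells against PBS (6.90% with 1.36%, and 0 with 0.846%, of 29 list genes tested), and 1 of the 9 genes there for IL10/2-Trikine. The coarser clustering gave 11 list genes in macrophage-like cells between the treatments (10.9% with 11.0%). It gave 4 of the 9 genes and 15 list genes in monocyte-like cells for mono-IL10 against PBS (20.5% with 10.8%). In dendritic cell-like cells it gave 1 of the 9 for IL10/2-Trikine against PBS, where 0.98% of all genes were called. With the lipid genes in the clustering, 15 list genes were called in monocyte-like cells for mono-IL10 against PBS (22.7% with 8.20%). In dendritic cell-like cells 1 of the 9 genes was then called for IL10/2-Trikine against PBS, where 1.17% of all genes were called. Other size factors and DESeq2 also called 1 there, with 0.907% and 2.37% of all genes. Without the low-count filter 4 of the 9 were called in monocyte-like cells, where 1.46% of all genes were called. In dendritic cell-like cells 2, 2 and 2 were called then, with 15, 10 and 9 list genes (13.5% with 2.34%, 9.01% with 1.59% and 8.11% with 2.77%), and 2, 2 and 2 in the Mmp12 cluster, where 0.811%, 0.445% and 0.462% of all genes were called. Without cells that held 2 or more non-immune UMIs the counts were 1 of the 9 in monocyte-like cells (2.31% of all genes) and 1 and 0 list genes in dendritic cell-like cells for IL10/2-Trikine against PBS and mono-IL10 (1.43% with 0.326%, and 0 with 0.274%), and with 50 cells per mouse 1 and 1 (1.14% with 0.350%, and 1.14% with 0.675%). The log2 ratio of Cd36 means with the same mix of clusters was -1.678 (-1.138 without) in macrophage-like cells for IL10/2-Trikine, and -0.5321 (-0.9693) and -0.5113 (-1.224) in dendritic cell-like cells for mono-IL10 and IL10/2-Trikine. In monocyte-like cells it was -0.6241 with the lipid genes in the clustering and -0.6465 with the coarser one (-1.361). The cause of these changes was not tested, except that fewer genes or cells enter where a filter is stricter.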
